A study of Mus musculus with 12 samples.

Results

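Expression of 9 genes of interferon regulation and nucleic acid sensing, Irf1, Irf3, Irf7, Irf9, Stat2, Ifih1, Ddx58, Zbp1 and Trex1, was followed through mouse leukaemia stem cells with and without the RNA component of telomerase. They were chosen by name, with earlier results of these data known. All probes of the array whose annotation carries one of these 9 symbols were taken. This gave 20 probes for 9 of the 18484 genes with a probe, and 18 of the 20 probes passed a filter on dim signals. The brightest passing probe stood for each gene, so that all 9 were among the 12002 genes tested.

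The series holds 12 Illumina bead arrays, 6 from wild-type (WT) and 6 from G3 Terc-/- cells. In both genotypes, C57BL/6J recipients aged 6 to 8 weeks were irradiated with 5.5 Gy and given 10000 lin-, kit+, sca1+ bone marrow cells carrying the leukaemia fusion gene MLLAF9 with a green fluorescent protein, so WT samples carry the oncogene too. Leukaemia stem cells (MLLAF9gfp+, lin-, kit+, Fcgr+) were then sorted from recipient bone marrow when each animal became ill. Terc-/- arrays carry a phosphorylation label, p-p53 (Ser15) on 3, p-Foxo3a (Ser253) on 2 and none on replicate 5, and WT arrays have no such label. The cells thus come from transplanted leukaemias in irradiated hosts, and the fusion gene is expressed from an introduced construct tagged with the fluorescent protein.

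The arrays of WT replicates 5 and 6 were nearly identical, as were those of Terc-/- replicates 2 and 6. Correlations over probes were at least 0.996 within these pairs and at most 0.990 in all other pairs. Each pair was averaged and counted as 1 sample, which left 5 samples of each genotype. The p-p53 label then covers 2 Terc-/- samples, replicate 3 and the averaged 2 and 6, and p-Foxo3a covers 2, replicates 1 and 4. Each array had 19415 to 19610 probes above the background limit of 6.56 log2 units. Kit, Fcgr2b, Hoxa9, Meis1 and Mpo, which mark the sorted leukaemia cells, were above it on all 12 arrays. The summed level of 7 such markers was 15.04 in Terc-/- replicate 4 and 15.97 to 16.20 in the other 9 samples, so that replicate stood apart in this sum. Mpo was the brightest of the 7 (mean 15.46). It averaged 14.66 ± 1.33 (SD) over replicates 1 and 4, the p-Foxo3a samples, and 15.64 ± 0.08 (SD) in WT. Single markers did not all share that order. Kit was 12.77 in replicate 4, within the WT range of 12.29 to 12.82, and Cd34 was 9.06 there, its highest value in any sample. Replicate 1 of the Terc-/- arrays stood apart over all probes, with correlations of 0.967 to 0.980 and 825 to 1601 probes that differed 2-fold against the other arrays. The summed level of 5 macrophage and monocyte markers was 10.26 in that replicate and 12.21 to 13.94 in the other samples. Vcam1 (mean 11.84) and Adgre1 (mean 10.63) were the brightest in that sum. Csf1r (mean 8.92) did not set replicate 1 apart. It averaged 8.49 with an SD of 0.07 over replicates 1 and 4, which overlapped WT. Of 2 markers near background, C1qb was lowest in replicate 1 (6.21, against 6.24 to 6.79). C1qa was not (6.65, against 6.31 to 6.69). The labels do not state that each sample is from an animal of its own, and the p-values reflect only how these samples spread, which may be technical. In bulk RNA, fewer cells of a type and less RNA per cell cannot be told apart.

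As background, RIG-I (the product of Ddx58) and MDA5 (Ifih1) bind viral or misplaced double-stranded RNA, and Zbp1 binds left-handed nucleic acid and can start cell death. RIG-I and MDA5 signal through mitochondrial MAVS to the transcription factors Irf3 and Irf7, which switch on type I interferon genes. Secreted interferon acts through its receptor on Stat2, which joins Irf9 in the complex ISGF3, and this induces a broad antiviral programme that includes several of the same sensors and factors. Irf1 is strongly induced by interferon gamma, and the exonuclease Trex1 degrades DNA in the cytosol and so restrains sensing by cGAS.

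Promoter sequences were available in RefSeq for 8 of the 9 genes (11 windows of 300 bases, from 250 before to 50 after an annotated start, mouse build GRCm38.p6). ISGF3 and the IRF factors bind the interferon-stimulated response element, searched here as GAAA, any 2 bases and GAAA, and STAT dimers bind the gamma-activated site, searched as TTC, any 3 bases and GAA, each on both strands. The first core occurred in 3 of the 11 windows, those of Stat2, Ifih1 and Ddx58, and in 3.44% of 32851 windows of all genes. The second occurred in 1 of the 11, a window of Irf1, and in 8.3% of all windows. No match of the first core overlapped one of the second. The 250 bases upstream of Irf1 and Stat2 are shown because each holds a match (in capitals), and those of Ddx58 because its values differed most between the labelled statuses. They are written 5′ to 3′ on the gene's strand, at chr11:53769764-53770013 (plus strand), chr10:128270248-128270497 (plus strand) and chr4:40239826-40240075 (minus strand).
Irf1: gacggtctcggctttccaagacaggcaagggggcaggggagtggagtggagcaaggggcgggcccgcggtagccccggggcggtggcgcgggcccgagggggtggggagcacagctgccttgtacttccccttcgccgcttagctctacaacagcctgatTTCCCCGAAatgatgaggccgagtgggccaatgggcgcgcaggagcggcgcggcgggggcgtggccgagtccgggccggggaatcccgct
Stat2: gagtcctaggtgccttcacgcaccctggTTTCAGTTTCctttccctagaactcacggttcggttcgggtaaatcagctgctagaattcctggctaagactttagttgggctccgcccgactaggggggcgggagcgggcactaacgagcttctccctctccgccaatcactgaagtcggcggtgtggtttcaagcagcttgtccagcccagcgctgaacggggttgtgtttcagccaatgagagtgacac
Ddx58: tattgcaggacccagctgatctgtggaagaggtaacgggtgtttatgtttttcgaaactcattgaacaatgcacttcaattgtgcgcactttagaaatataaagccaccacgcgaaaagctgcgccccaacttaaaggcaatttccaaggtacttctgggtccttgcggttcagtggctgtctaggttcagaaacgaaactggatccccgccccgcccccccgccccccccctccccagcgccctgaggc
The Irf1 match lies at bases -90 to -82 from the start. That of Stat2 lies at -222 to -213 and is the core read on the opposite strand. The Ddx58 match (TTTCGATTTC, also on the opposite strand) lies at bases 3 to 12 after the start, just past the printed stretch, and that of Ifih1 (GAAACAGAAA) at bases 33 to 42. A match is a description of letters and not a binding site, and a window without one lacks only these letters.

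The comparison of Terc-/- with WT samples asks whether loss of telomerase RNA goes with a change in these regulators. None of the 9 passed an adjusted p of 0.05 in limma, as was true of all 12002 genes (0% called). At an unadjusted p under 0.05, 0 of the 9 were called, against 7.4% of all genes (888). Of the 9, 7 had a higher mean in Terc-/- samples, against 46% of all genes, and their median log2 difference was 0.10, against -0.01 for all genes. No member had groups that did not overlap, which 1.18% of all genes had. Differences below are Terc-/- minus WT in log2 units with 95% intervals, values are given for WT replicates 1, 2, 3, 4 and the averaged 5 and 6, and then for Terc-/- replicates 1, the averaged 2 and 6, 3, 4 and 5. Levels of different genes are not set against each other, since each probe has its own brightness.

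**Figure D1:**
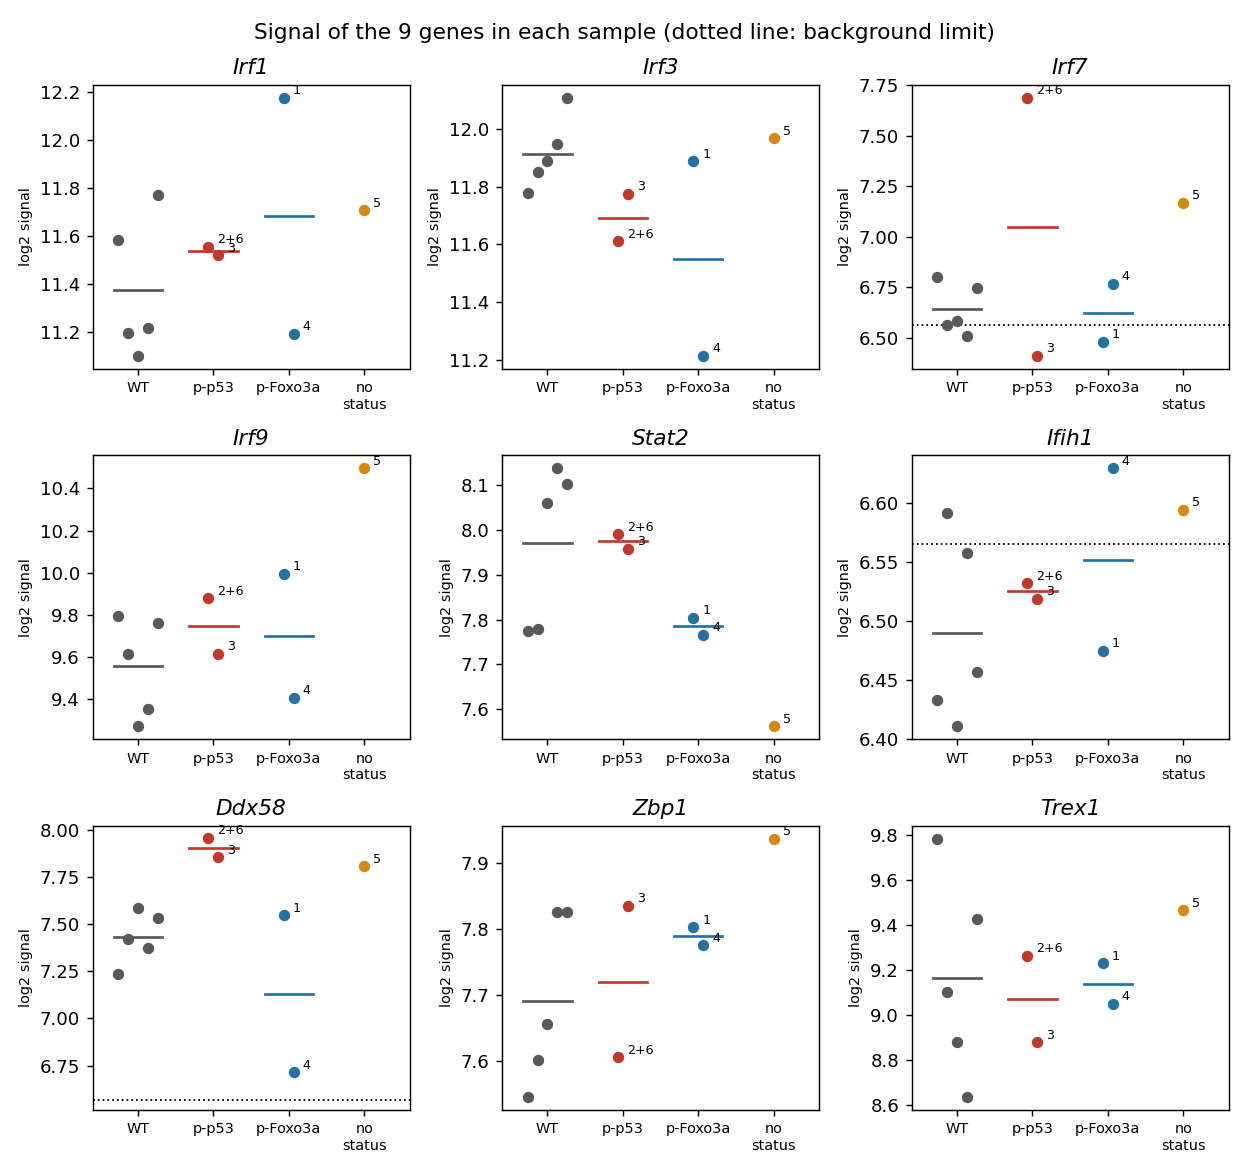
Signal of each of the 9 genes (log2 units, vertical axis) in every sample, grouped as WT, p-p53, p-Foxo3a and no status, with the background limit of 6.56 as a dotted line. Ddx58 reaches 7.86 and 7.96 in the p-p53 samples and 7.59 at most in WT, and Irf7 sits near the limit in most samples but reaches 7.69 and 7.17 in 2 Terc-/- samples.

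Among the RNA sensors, Ddx58 measured 7.24, 7.42, 7.59, 7.38 and 7.53 in WT samples and 7.55, 7.96, 7.86, 6.71 and 7.81 in Terc-/- samples. In all, 3 Terc-/- samples lay above every WT sample, 1 lay within the WT range and replicate 4 lay below it. The mean was 7.58 ± 0.51 (SD, n = 5) against 7.43 ± 0.14 (SD, n = 5), a difference of 0.15 ± 0.21 (SE, interval -0.32 to 0.61, limma adjusted p = 0.885). The difference was 0.36 without replicate 4 (adjusted p = 0.530) and 0.05 without the averaged replicates 2 and 6 (adjusted p = 0.962). A second Ddx58 probe was above the limit on 2 of 12 arrays and did not pass the filter.

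Ifih1 was near background throughout, above the limit on 2 of 6 WT and 3 of 6 Terc-/- arrays. Its values were 6.43, 6.59, 6.41, 6.56 and 6.46 in WT and 6.47, 6.53, 6.52, 6.63 and 6.59 in Terc-/- samples, and the groups overlapped almost wholly. The difference was 0.06 ± 0.07 (SE, interval -0.09 to 0.21, adjusted p = 0.837), and a difference in a gene this dim is understated on this scale.

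Zbp1 varied least among the well-measured members. It measured 7.55, 7.60, 7.66, 7.83 and 7.83 in WT samples and 7.80, 7.61, 7.83, 7.77 and 7.94 in Terc-/- samples. All values but that of replicate 5 fell in the WT range or within 0.01 of it, and the difference was 0.10 ± 0.09 (SE, interval -0.09 to 0.29, adjusted p = 0.793). A second Zbp1 probe was above the limit on 0 of 12 arrays.

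The factors downstream of the sensors, Irf3 and Irf7, differed in opposite directions. Irf3, which is made constitutively and activated by phosphorylation, measured 11.78, 11.85, 11.89, 11.95 and 12.11 in WT and 11.89, 11.61, 11.77, 11.21 and 11.97 in Terc-/- samples. Replicates 3 and 4 and the averaged 2 and 6 were below the lowest WT value, replicate 4 by the most and replicate 3 by less than 0.01. The mean was 11.69 ± 0.30 (SD, n = 5) against 11.91 ± 0.12 (SD, n = 5), a difference of -0.22 ± 0.14 (SE, interval -0.53 to 0.08, adjusted p = 0.718). Without replicate 4 it was -0.10 (adjusted p = 0.790). All 7 tested late neutrophil markers of 8 listed had a lower mean in Terc-/- samples too (median -0.28). S100a8, Camp and Ngp among them were above the limit on 12 arrays, and Mmp8, which was not tested, on 0. The part of neutrophil cells in the Irf3 values was not tested.

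Irf7, which is itself induced by interferon and amplifies its production, was above the limit on 3 of 6 WT and 4 of 6 Terc-/- arrays. It measured 6.80, 6.56, 6.58, 6.51 and 6.75 in WT and 6.48, 7.69, 6.41, 6.77 and 7.17 in Terc-/- samples. The averaged replicates 2 and 6 and replicate 5 were above every WT sample, while replicates 1 and 3, like the lowest WT samples, were under the background limit and have no order among them. This spread (SD 0.53 in Terc-/-, 0.13 in WT, n = 5 each) left the difference at 0.26 ± 0.22 (SE, interval -0.22 to 0.75, adjusted p = 0.786), and at 0.07 without the averaged replicates 2 and 6. Plasmacytoid dendritic cells hold much Irf7, and 4 of their 8 listed markers were tested. The summed level of those 4 ranged from 11.07 to 13.27 in WT and from 10.99 to 14.18 in Terc-/- samples and was highest in the averaged replicates 2 and 6, where Irf7 was highest too. Tcf4 made up nearly all of that sum (14.15 in that sample), while Klk1 was above the limit on 0 arrays, Siglech on 1 and Ly6d on 2. The part of such cells in the Irf7 values was not tested.

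The DNA-binding and transactivating partners of ISGF3, Irf9 and Stat2, also went opposite ways. Irf9 measured 9.79, 9.62, 9.27, 9.35 and 9.76 in WT and 9.99, 9.88, 9.61, 9.41 and 10.50 in Terc-/- samples. Replicates 1 and 5 and the averaged 2 and 6 were above every WT sample, while replicates 3 and 4 lay in the WT range. Its difference, 0.32 ± 0.19 (SE, interval -0.11 to 0.75, adjusted p = 0.716), was the largest of the 9, corresponds to 1.25-fold, and was 0.16 without replicate 5.

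Stat2 measured 7.77, 7.78, 8.06, 8.14 and 8.10 in WT and 7.80, 7.99, 7.96, 7.77 and 7.56 in Terc-/- samples. Replicate 5, which had the highest Irf9, had the lowest Stat2. The difference was -0.15 ± 0.11 (SE, interval -0.40 to 0.09, adjusted p = 0.756), and -0.09 without replicate 5. Over the 10 samples, Irf9 and Stat2 had a Pearson correlation of -0.65, the lowest among the 36 pairs of members.

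Irf1, whose product activates MHC class I and guanylate-binding protein genes, measured 11.58, 11.20, 11.10, 11.22 and 11.77 in WT and 12.18, 11.56, 11.52, 11.19 and 11.71 in Terc-/- samples. Only replicate 1 lay above every WT sample. The difference was 0.26 ± 0.19 (SE, interval -0.16 to 0.67, adjusted p = 0.760), and 0.12 without replicate 1. Trex1 measured 9.78, 9.10, 8.88, 8.64 and 9.43 in WT and 9.23, 9.26, 8.88, 9.05 and 9.46 in Terc-/- samples. The widest spread of Trex1 was among WT samples (SD 0.45, against 0.22, n = 5 each), and the difference was 0.01 ± 0.20 (SE, interval -0.44 to 0.46, adjusted p = 0.995). Its sign turned in 8 of 19 alternative analyses.

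Across the 9 intervals, the highest upper bound was 0.75 (Irf7 and Irf9, each 1.68-fold), which for the dim Irf7 is an understatement on this scale, and the lowest lower bound was -0.53 (Irf3, a ratio of 0.694). With 5 samples a group, these data do not exclude differences within a gene's interval. Without replicate 1, 6 of 9 were higher, 0 had an unadjusted p under 0.05 in limma, and the differences were 0.12 for Irf1, 0.37 for Irf7 and 0.29 for Irf9 (adjusted p = 0.909). Without replicate 4, 7 of 9 were higher, with differences of 0.37 for Irf1, 0.30 for Irf7 and 0.44 for Irf9 (adjusted p = 0.577). Irf9 and Ddx58 then had an unadjusted p under 0.05 in limma, and neither passed adjustment. The number of members higher in Terc-/- samples was 6 or 7 under each alternative in which all 9 were tested. It was 6 of 8 when a probe had to be above the limit on 6 arrays, which removed Ifih1.

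**Figure D2:**
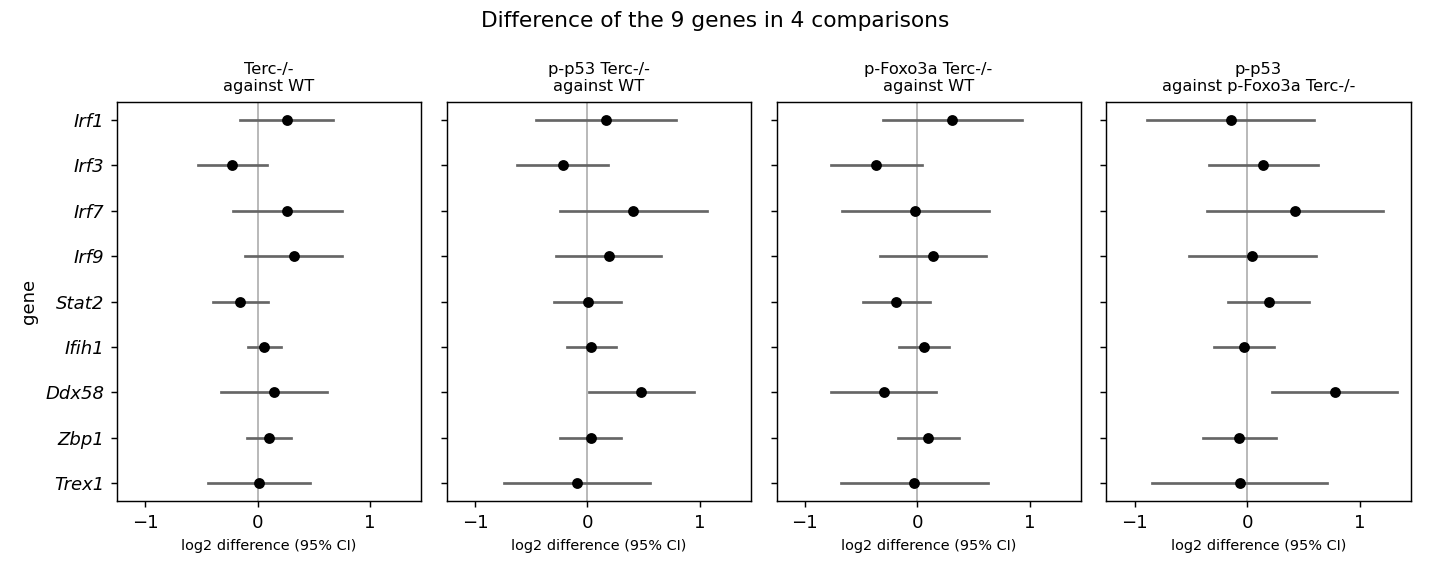
Log2 differences (horizontal axis) with 95% intervals for the 9 genes in 4 comparisons, Terc-/- against WT, p-p53 and p-Foxo3a each against WT, and p-p53 against p-Foxo3a. Intervals include 0 except for Ddx58 in the p-p53 samples against WT (0.01 to 0.94) and against p-Foxo3a (0.22 to 1.33).

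Genes with several probes allowed the direction to be read more than once from the same RNA. All 5 Irf1 probes were higher in Terc-/- samples (0.20 to 0.30), and both Irf9 probes were (0.32 and 0.34). All 3 Irf3 probes were lower (-0.22 to -0.18). The 3 Trex1 probes lay between 0.01 and 0.06. With each of the 18 probes as a feature of its own, the smallest adjusted p was 0.645, for an Irf1 probe with a difference of 0.30 ± 0.12 (SE) and an unadjusted p of 0.0263 in limma. Across the 10 samples, probes of 1 gene correlated at 0.87 for Irf9, 0.65 to 0.93 for Irf3, 0.49 to 0.92 for Irf1 and 0.20 to 0.86 for Trex1, whose dimmest probe was above the limit on 8 of 12 arrays. These probes share the same RNA and arrays and are no replicates.

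**Figure D3:**
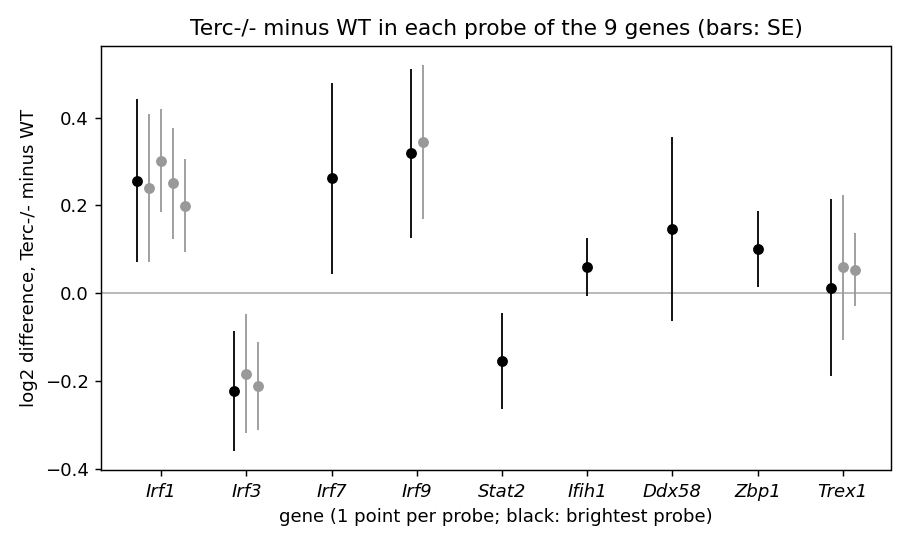
Log2 difference, Terc-/- minus WT (vertical axis), for each passing probe of the 9 genes, with bars for the SE and the brightest probe of each gene in black. The 5 Irf1 probes and 2 Irf9 probes lie above 0 and the 3 Irf3 probes below it.

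Each phosphorylation label was next compared with WT and with the other label, in a fit that left out replicate 5. The comparisons with WT share the WT samples, so their values are given side by side and not correlated. With 2 samples a label, each value rests heavily on single samples. None of the 9 genes passed adjustment in these comparisons, nor did any other gene (0% called in each, against 2.62%, 9.75% and 5.12% at an unadjusted p under 0.05 in limma).

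Ddx58 separated the labels most. Its p-p53 samples measured 7.96 and 7.86 and its p-Foxo3a samples 7.55 and 6.71, against 7.24 to 7.59 in WT and 7.81 in the sample with no status. Both p-p53 samples were thus above every WT sample, and the p-Foxo3a samples were within or below the WT range. On single arrays, the averaged WT replicates 5 and 6 measured 7.74 and 7.32, and the p-p53 arrays 7.86 to 8.03. The 2 arrays counted as 1 WT sample thus lay apart for Ddx58. The p-p53 mean exceeded WT by 0.48 ± 0.20 (SE, interval 0.01 to 0.94, 1.39-fold, limma unadjusted p = 0.0459, adjusted p = 1.00), where 1.26% of genes were higher at an unadjusted p under 0.05 and 4.02% did not overlap in that direction. The unadjusted p was under 0.05 in 9 of 18 alternatives, and the difference lay between 0.42 and 0.62 over all 18. The p-Foxo3a mean differed from WT by -0.30 ± 0.20 (SE, interval -0.77 to 0.17, adjusted p = 0.672).

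Directly compared, Ddx58 was higher in p-p53 than in p-Foxo3a samples by 0.78 ± 0.24 (SE, interval 0.22 to 1.33, 1.71-fold, limma unadjusted p = 0.0119, adjusted p = 0.945). In that comparison 2.61% of genes were higher at an unadjusted p under 0.05, and in 15.6% the p-p53 samples lay wholly above the p-Foxo3a samples. The difference was 0.36 without replicate 4 and 1.19 without replicate 1, each fit leaving 1 p-Foxo3a sample that is assumed to vary like the others. The summed level of late neutrophil markers (7 tested of 8 listed) was also lowest in replicate 4, at 14.91, against 16.19 to 17.03 in WT and 15.26 to 17.23 in the other Terc-/- samples, with Mmp8 above the limit on 0 arrays. Single markers did not share that order: Camp was lowest in the averaged replicates 2 and 6 (11.39, against 12.51 in replicate 4), the sample with the highest Ddx58. Of 7 tested markers of the sorted leukaemia cells, 1 was higher and 1 lower in p-p53 than in p-Foxo3a samples at an unadjusted p under 0.05 in limma. These were Fcgr2b (0.51) and Cd34 (-1.44), and neither passed adjustment. Kit differed by 0.05. The part of the sorted population's makeup in the Ddx58 difference was not tested.

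Irf3 was below WT in both labels, by means of -0.22 ± 0.18 (SE, adjusted p = 1.00) in p-p53 and -0.36 ± 0.18 (SE, adjusted p = 0.554) in p-Foxo3a samples. The p-p53 samples, 11.61 and 11.77, lay under the lowest WT value of 11.78, as 4.31% of all genes did, but the nearer of them by less than 0.01. The p-Foxo3a samples were 11.89 and 11.21, so that the difference was -0.03 without replicate 4 and -0.70 without replicate 1. Replicate 4, with the lowest Irf3, also had the lowest neutrophil marker sum, and whether that played a part was not tested.

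Irf7 was split within the p-p53 label, at 7.69 in the averaged replicates 2 and 6 and 6.41 in replicate 3. Its mean difference from WT was 0.41 ± 0.29 (SE, adjusted p = 1.00), with -0.23 when the averaged replicates 2 and 6 were left out and 1.05 when replicate 3 was. Its p-Foxo3a samples, 6.48 and 6.77, differed from WT by -0.02 ± 0.29 (SE, adjusted p = 0.990). Irf1 was split within the p-Foxo3a label instead, at 12.18 in replicate 1 and 11.19 in replicate 4, against 11.52 and 11.56 in p-p53 samples. Its p-Foxo3a difference from WT of 0.31 ± 0.27 (SE, adjusted p = 0.741) became -0.18 without replicate 1 and 0.80 without replicate 4.

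Irf9 differed from WT by 0.19 ± 0.21 (SE) in p-p53 and 0.14 ± 0.21 (SE) in p-Foxo3a samples, with its highest value, 10.50, in the sample with no status. Stat2 lay at 7.99 and 7.96 in p-p53 and at 7.80 and 7.77 in p-Foxo3a samples, a difference of 0.19 ± 0.16 (SE, interval -0.17 to 0.55, adjusted p = 0.954). These 2 labels did not overlap for Stat2, as in 15.6% of all genes in that direction and in 2 of the 9 members. Both labels lay inside the WT range of 7.77 to 8.14 to within 0.01. By their brightest probes, Ifih1, Zbp1 and Trex1 differed by at most 0.10 in size in each of the 3 comparisons of labels. The dimmest Trex1 probe was higher in p-p53 samples, by 0.12 against WT and 0.18 against p-Foxo3a. Neither comparison overlapped in that probe, as in 4.02% and 15.6% of all genes in that direction. The brightest Trex1 probe gave -0.09 and -0.07 there, and the third gave 0.02 and -0.08. In all, 7 of the 9 genes had a higher mean than WT in p-p53 samples (47% of all genes) and 4 of 9 in p-Foxo3a samples (46.9%). By their brightest probes, 0 of the 9 were clear of the WT range in the p-Foxo3a samples, against 12.5% of all genes. The dimmest Irf3 probe lay wholly below WT in both labels (-0.25 in p-p53 and -0.28 in p-Foxo3a samples). An Irf1 probe other than the brightest lay wholly above WT in p-p53 samples (0.29, as did 4.02% of all genes), unlike the other Irf1 probes. Of the 9, 5 were higher in p-p53 than in p-Foxo3a samples, against 51.8% of all genes.

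Within Terc-/- samples the number of members above their mean over all samples was 8 in replicate 5, 7 in the averaged replicates 2 and 6, 6 in replicate 1, 4 in replicate 3 and 2 in replicate 4. Among WT samples it ranged from 2 to 7. The share of all genes above their own mean was not computed for each sample, so these counts cannot be read as particular to the members. They also include small deviations of genes near background, such as 0.01 for Ifih1 in the averaged replicates 2 and 6.

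The 9 genes did not move as a block. Of their 36 pairs, 23 had a correlation above 0 over the 10 samples, with a median of 0.14. The highest was 0.72 (Irf1 and Irf9), followed by 0.66 (Irf9 and Trex1). For each member the genes of most similar pattern over the same 10 samples, among all genes tested, were named by their Pearson correlation. They were Irgm2 (0.96), Rab10 (0.93) and Gm12250 (0.93) for Irf1, and Rsad2 (0.94), Acads (0.94) and Ecd (0.90) for Irf7. For Irf9 they were Rhoc, Mllt3 and Gvin1 (0.90 each), for Stat2 Prpf8 (0.95), Usp28 (0.94) and Rttn (0.92), and for Irf3 S100a8 (0.95), Bcan (0.95) and Flii (0.93). S100a8 is also on the list of late neutrophil markers. For the sensors they were 4930404N11Rik (0.94), Cldn18 (0.90) and Cip2a (0.90) with Ddx58, Cdhr2 (0.94), Znhit3 (0.93) and Norad (0.87) with Ifih1, and Hk3 (0.96), Birc6 (0.94) and L1td1 (0.94) with Zbp1. For Trex1 they were Zmat2 (0.94), Samhd1 (0.93) and Cnp (0.93). These are descriptions over samples that share arrays and groups, and each was picked as among the highest of 12002 genes.

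The members lie on 7 chromosomes (2, 4, 7, 9, 10, 11 and 14), and the 25 tested genes on either side of each were used to see whether its region as a whole was raised or lowered in a sample. The median deviation of the neighbours ranged from -0.13 to 0.10 log2 units over all members and samples. For Ddx58 in replicate 4 it was -0.02, and for Irf9 in replicate 5 it was -0.0026.

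Other genes of the pathway were taken from 6 lists, of which 88 of 119 listed genes were tested. Between Terc-/- and WT samples 50 were higher and 38 lower, their median difference was 0.03, and 0 passed adjustment (smallest limma adjusted p = 0.655). At an unadjusted p under 0.05, 5 were higher and 5 lower, or 10 of 88, against 7.4% of all genes.

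Of other sensors, 12 of 21 were tested, 9 higher and 3 lower, with a median of 0.07. Dhx58 encodes LGP2, which binds RNA as RIG-I does and regulates RIG-I and MDA5. It measured 8.52, 8.50, 7.90, 8.13 and 8.54 in WT and 9.26, 9.23, 8.47, 8.28 and 8.85 in Terc-/- samples, so that replicates 1, 5 and the averaged 2 and 6 were above every WT sample. The difference was 0.50 ± 0.21 (SE, limma unadjusted p = 0.0382, adjusted p = 0.661). Cgas, which turns cytosolic DNA into the messenger cGAMP, measured 11.87, 12.34, 12.20, 12.24 and 12.26 in WT and 11.43, 11.74, 12.01, 11.89 and 12.09 in Terc-/- samples. Replicate 1 and the averaged 2 and 6 were under the lowest WT sample, and the difference was -0.35 ± 0.13 (SE, unadjusted p = 0.0262, adjusted p = 0.660).

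Adaptors and kinases were divided, with 10 higher and 12 lower of 22 tested (27 listed, median -0.03). The genes of smallest p were Ikbkb, the kinase IKK beta of the NF-kB pathway (0.28 ± 0.11, SE, adjusted p = 0.660), and Fadd, an adaptor of death receptors (-0.23 ± 0.09, SE, adjusted p = 0.660). Of other IRF and STAT family factors and related regulators, 9 of 14 were tested and 8 were higher (median 0.18), with 0 at an unadjusted p under 0.05. Batf2 measured 7.22 in replicate 1, 7.15 in the averaged replicates 2 and 6 and 6.68 in replicate 5, and 6.45 to 6.59 in all other samples, which is around the background limit. Its difference was 0.32 ± 0.15 (SE, adjusted p = 0.679). Nlrc5, an activator of MHC class I genes, was highest in the same 3 samples (8.52, 7.77 and 7.78, against 6.44 to 7.63 elsewhere), with a difference of 0.56 ± 0.38 (SE, adjusted p = 0.738).

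Among interferons and their receptors, 10 of 17 were tested, 7 higher and 3 lower (median 0.08). The receptor chains for interferon gamma went opposite ways, Ifngr1 by 0.32 ± 0.17 (SE, adjusted p = 0.679) and Ifngr2 by -0.37 ± 0.17 (SE, adjusted p = 0.679). Negative regulators had 8 higher and 11 lower of 19 tested (20 listed, median -0.05). Trim30a, which restrains inflammatory signalling in mice, measured 9.90, 9.50, 8.98, 8.71 and 9.93 in Terc-/- and 9.09, 8.64, 8.76, 8.43 and 9.06 in WT samples, again with replicates 1, 5 and the averaged 2 and 6 above every WT sample (0.61 ± 0.25, SE, adjusted p = 0.660). Socs3, a feedback inhibitor of JAK kinases, was at background in most WT samples (6.30 to 6.63) and reached 7.55 in replicate 1, with replicate 5 next, a difference of 0.45 ± 0.18 (SE, adjusted p = 0.660).

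Trex1 belongs to the enzymes that clear stray nucleic acid, of which 16 of 20 others were tested, 8 higher and 8 lower (median 0.00). Rnaseh2b, a subunit of the enzyme that removes ribonucleotides from DNA, measured 11.93, 12.07, 12.16, 11.89 and 12.02 in WT and 11.35, 11.97, 11.85, 11.70 and 11.58 in Terc-/- samples. All Terc-/- samples but the averaged replicates 2 and 6 were under the lowest WT value, with a difference of -0.32 ± 0.12 (SE, unadjusted p = 0.0182, adjusted p = 0.655). Xrn1, an exonuclease of mRNA decay, differed by -0.19 ± 0.09 (SE, adjusted p = 0.679).

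**Figure D4:**
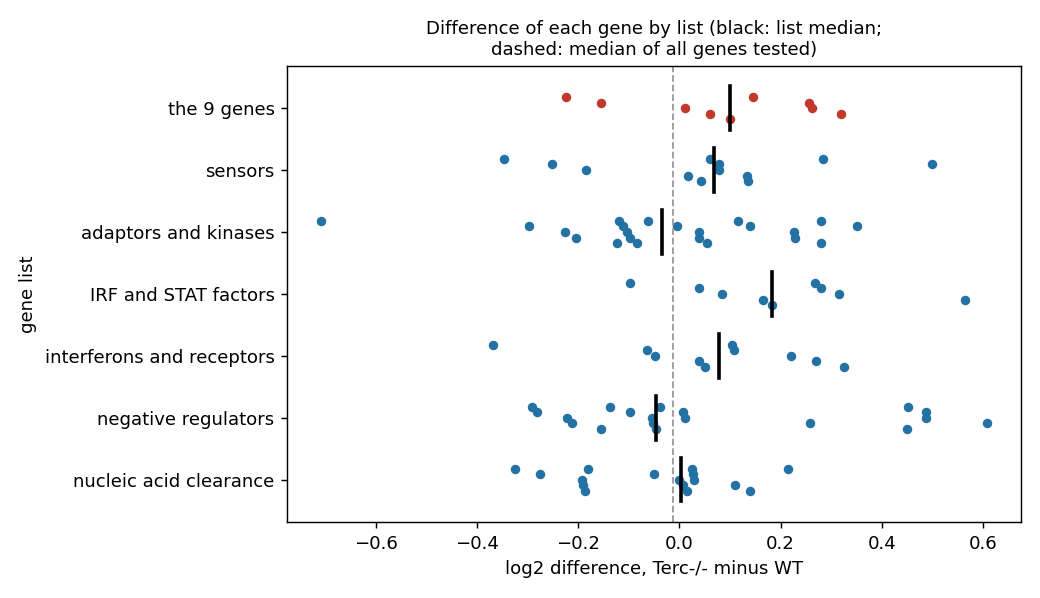
Log2 difference, Terc-/- minus WT (horizontal axis), of each tested gene of the 9 members and of 6 pathway lists (vertical axis), with list medians in black and the median of all genes dashed. List medians lie between -0.05 and 0.18, and no gene shown passed adjustment.

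Between the labels the pathway lists likewise gave 0 genes past adjustment. At an unadjusted p under 0.05, limma called 3 higher and 0 lower of 88 in p-p53 samples against WT (2.62% of all genes either way), 3 higher and 5 lower in p-Foxo3a samples against WT (9.75%), and 3 higher and 0 lower in p-p53 against p-Foxo3a samples (5.12%). Among markers of lymphoid cells, Pax5, Blk, Cd3e, Cd3g and Ncr1 were above the limit on 0 of 12 arrays. Others of the same lists were detected, Cd79b, Ebf1 and Nkg7 on 12 arrays, Cd247 on 11, Cd3d on 9, Klrb1c on 8 and Ms4a1 on 4, and their part in the values of the 9 genes was not tested.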

How the data were processed

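The deposited values are the authors' log2 signals of 38502 probes. The submitters' processing notes list GenomeStudio. How signals were normalized and background handled is not given in the sources used here. The log base was read from the range of the values and is stated in no source. Sorted values differed by at most 0.09 log2 units between arrays at any rank. A further table has 24 columns (12 signal, 12 detection) whose names fit no sample label, and it was not used. The test designed for its detection p-values gave way to limma on the log2 table. No background subtraction was visible, so differences of dim genes are understated.

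The background limit, 6.56, came from the mode (6.35) and SD (0.13) of low values, with a 0.05 tail. Probes were kept when above it on at least 3 of 12 arrays (22156 probes), and the brightest kept probe stood for each gene. The platform annotation gave 1 gene to 32034 probes, several to 16 and did not list 6452, and 31976 of the first matched a RefSeq gene by Entrez identifier. Groups were compared in limma 3.58.1 (R 4.3.3; lmFit, eBayes), two-sided, with Benjamini-Hochberg adjustment over 12002 genes, and the fit was tested on simulated data. The design counted 12 arrays, and near-identical arrays were then averaged. Summed levels of a marker list are log2 of the sum of the linear values. The text names all 9 members with every probe, the 2 genes of smallest p in each pathway list, and the 3 genes most like each member. The members and lists were chosen with earlier results of these data known.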

Additional observations from a re-analysis of the deposited data

How the results depend on the processing

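The members' differences in the 4 comparisons made 36 results, recomputed under 653 alternatives. In 610 the direction held, in 43 it turned, and no result crossed the threshold of 0.05. Of the 36 results, 18 never turned, among them Irf1, Irf3, Irf7, Irf9, Stat2, Ifih1, Ddx58 and Zbp1 in Terc-/- against WT and Ddx58 in p-p53 against WT and against p-Foxo3a. The depth of signal limits Ifih1 and Irf7, which lie near background. With all 12 arrays as separate samples, values turned to -0.0172 for Trex1 in Terc-/- against WT and to -0.0126 for Stat2 and -0.0313 for Zbp1 in p-p53 against WT, and 1 gene passed in that comparison. With array weights Stat2 there was -0.0231 and Zbp1 -0.000317. With the replicate block on 12 arrays, Trex1 was -0.0172 in Terc-/- against WT, 0.0216 in p-p53 against WT and 0.0923 in p-p53 against p-Foxo3a, while Stat2 and Zbp1 were -0.0520 and -0.0363 in p-p53 against WT. Same-numbered samples did not deviate together (correlations -0.22 to 0.15, 1 of 6 over 0.1). This cannot decide whether the numbers pair them, since a pairing need not show over whole arrays. The block changed no member's call at an adjusted p of 0.05. At an unadjusted p under 0.05 in limma, Ddx58 was called with separate arrays but not with the block, in p-p53 against WT and against p-Foxo3a. The same held for Irf7 in p-p53 and Irf3 in p-Foxo3a against WT. Irf9 was called with the block but not with separate arrays, in Terc-/- and p-p53 against WT.

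Leaving out 1 sample at a time gave 0 to 1 genes past the threshold in Terc-/- against WT, 0 to 15 in p-p53 and 0 to 262 in p-Foxo3a against WT, and 0 to 29 between the labels, with no member among them. The highest counts came without replicate 3, replicate 3, replicate 4 and replicate 4 of the Terc-/- samples. Ranges of differences that changed sign were, in Terc-/- against WT, -0.12 to 0.17 for Trex1. In p-p53 against WT they were -0.23 to 1.05 for Irf7, -0.0452 to 0.0456 for Stat2, -0.0852 to 0.14 for Zbp1 and -0.29 to 0.10 for Trex1. In p-Foxo3a against WT they were -0.18 to 0.80 for Irf1, -0.16 to 0.13 for Irf7, -0.15 to 0.44 for Irf9, -0.0153 to 0.14 for Ifih1, -0.72 to 0.12 for Ddx58 and -0.16 to 0.13 for Trex1. In p-p53 against p-Foxo3a they were -0.64 to 0.34 for Irf1, -0.19 to 0.48 for Irf3, -0.21 to 1.06 for Irf7, -0.25 to 0.34 for Irf9, -0.10 to 0.0507 for Ifih1, -0.18 to 0.0458 for Zbp1 and -0.26 to 0.13 for Trex1. Where 1 sample of a label was left, it is assumed to vary like the others. The cause of these changes was not tested.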
